A study of Homo sapiens with 6 samples.

Results

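VEGFA, MYC, CCND1 and NRAS are growth genes whose mRNAs are known for long or structured 5′ leaders, and the clusters of Angel1 eCLIP reads within these 4 genes were examined. A cluster was assigned to a gene when at least 1 nt of it lay within the gene on the matching strand of GRCh37. This gave 77 of the 205520 clusters listed for 3 immunoprecipitations (IPs), namely 30 of 102843 in FLAG-Angel1 replicate 1, 45 of 96960 in FLAG-Angel1 replicate 2 and 2 of 5717 in the control. The genes had been selected on values measured in these same lists, the first cluster of VEGFA above all, so that the enrichment values are a description and no test was made on them. The gene bounds used were chr6:43737946-43754224 on the plus strand for VEGFA, chr8:128748315-128753680 on the plus strand for MYC, chr11:69455873-69469242 on the plus strand for CCND1 and chr1:115247085-115259515 on the minus strand for NRAS. Positions below are counted along the genome from 1 at the transcript start, introns included. Whether a cluster lies in an exon, an intron or a UTR was not analysed here, and the structure of the leaders that gives the group its name was therefore not checked against the clusters.

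In eCLIP, protein is cross-linked to RNA in living cells by UV light, the protein is immunoprecipitated, and the RNA fragments that come with it are sequenced and set against a size-matched input from the same lysate. The cells were Flp-In T-REx HEK293, derived from human embryonic kidney and carrying an integration site for constructs under tetracycline control, and the study asked which RNAs are contacted by Angel1, a partner of the cap-binding factor eIF4E and a homolog of Angel2, which removes 2′,3′-cyclic phosphates from RNA ends. Of the 6 libraries, 4 were IP and input of 2 replicates of cells expressing FLAG-Angel1, and the others were IP and input of 1 control line that, per the paper, carried no FLAG fusion protein, although its labels name the FLAG-Angel1 genotype. All cells were given 5 ng/mL tetracycline for 24 h, and the labels give UV light of 254 nm at 400 mJ/cm2 for each library, whereas the paper mentions 1 sample without UV that cannot be told apart by label. The FLAG-Angel1 replicates are not stated to come from separate clones or cultures, and the differences between them may be technical.

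The 5′ UTR of an mRNA is the stretch through which the small ribosomal subunit moves from the cap to the start codon, and stable folding in it slows this movement. Messages of growth regulators often carry long, GC-rich 5′ UTRs and rely strongly on eIF4E and RNA helicases for translation. VEGFA, the main growth factor of blood vessels, has an unusually long leader with internal ribosome entry sites and an upstream CUG start. MYC, a transcription factor that drives growth, starts from several promoters and has its coding sequence in its later exons. CCND1 encodes cyclin D1, the partner of CDK4 and CDK6 in early cell cycle entry. NRAS encodes a small GTPase of the RAS family, and its leader is a textbook case of an RNA G-quadruplex, a fold of stacked guanines.

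A G-rich sequence near the start of NRAS is printed as an example of the kind of letters from which such folds form. The RefSeq window of GRCh38.p14, from 250 bases before to 50 after the annotated start, holds 4 runs of at least 3 G separated by gaps of 1 to 7 bases, which are in capitals here.
NRAS: GGGaGGGGcGGGtctGGG
It lies on the minus strand at chr1:114716863-114716880 of GRCh38.p14, that is 92 to 109 bases before the start site in that table, and is 18 bases long. The same pattern of G runs was found on the strand of the gene in 5051 of 35116 such windows (14.4%), and on either strand in 8778. The match is a description of letters on another genome build than that of the clusters, and its place relative to the NRAS bound used here was not analysed. The start site in that table may differ from the transcript start used here, so that the letters may lie inside the transcript. Of the 4 genes, 1 had a window in the table used.

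For each cluster the authors gave an enrichment, as the log2 fold of its IP over its input, with a P. The folds were spaced as ratios of whole numbers, from which the reads behind each cluster were inferred. A single pair of IP and input reads returned both deposited values for 25 of the 30 clusters of replicate 1, 41 of the 45 of replicate 2 and both control clusters. No pair was sought where the fold was not above 0, which held for 3 clusters of replicate 1 and 2 of replicate 2. Several pairs matched for 2 clusters in each replicate. The inferred libraries held about 3384000 IP and 719000 input reads in replicate 1, 2544000 and 2813000 in replicate 2, and 210000 and 3249000 in the control. An inferred input of 1 read may also be a minimum set by the authors' pipeline. The 95% intervals given with folds are exact (Clopper-Pearson) intervals on the inferred reads and cover counting error only.

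Clusters were not spread evenly over the 4 genes. In replicate 1, VEGFA held 12 clusters, MYC 10, CCND1 4 and NRAS 4. In replicate 2 they held 17, 7, 13 and 8, respectively. With abutting clusters joined, MYC had 5 in each replicate. A cluster was called enriched when the authors' P passed 0.05 with a log2 fold above 0. VEGFA then had 7 enriched clusters in replicate 1 and 12 in replicate 2, MYC 8 and 7, CCND1 1 and 5, and NRAS 0 and 1. Over all 4 genes this was 16 of 30 in replicate 1 (53.3%, Wilson 95% interval 36.1% to 69.8%) and 25 of 45 in replicate 2 (55.6%, interval 41.2% to 69.1%). Over the whole lists, the enriched share was 11.7% for replicate 1, 40.7% for replicate 2 and 91.8% for the control, and both control clusters in the 4 genes were among the latter. At the threshold of 0.001, 11 and 14 were left in the 4 genes in replicates 1 and 2, where the lists as a whole kept 4.22% and 17.0%. Clusters past 0.001 that overlapped between the replicates numbered 10 in replicate 1 and 9 in replicate 2, against 3.2% and 3.54% of all clusters, and formed 6 of the 2243 reproducible peaks of the series. Since the genes were chosen by this contrast, nothing is read from these shares. The 6 peaks were 2 in VEGFA and 4 in MYC, and CCND1 and NRAS had none.

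**Figure D1:**
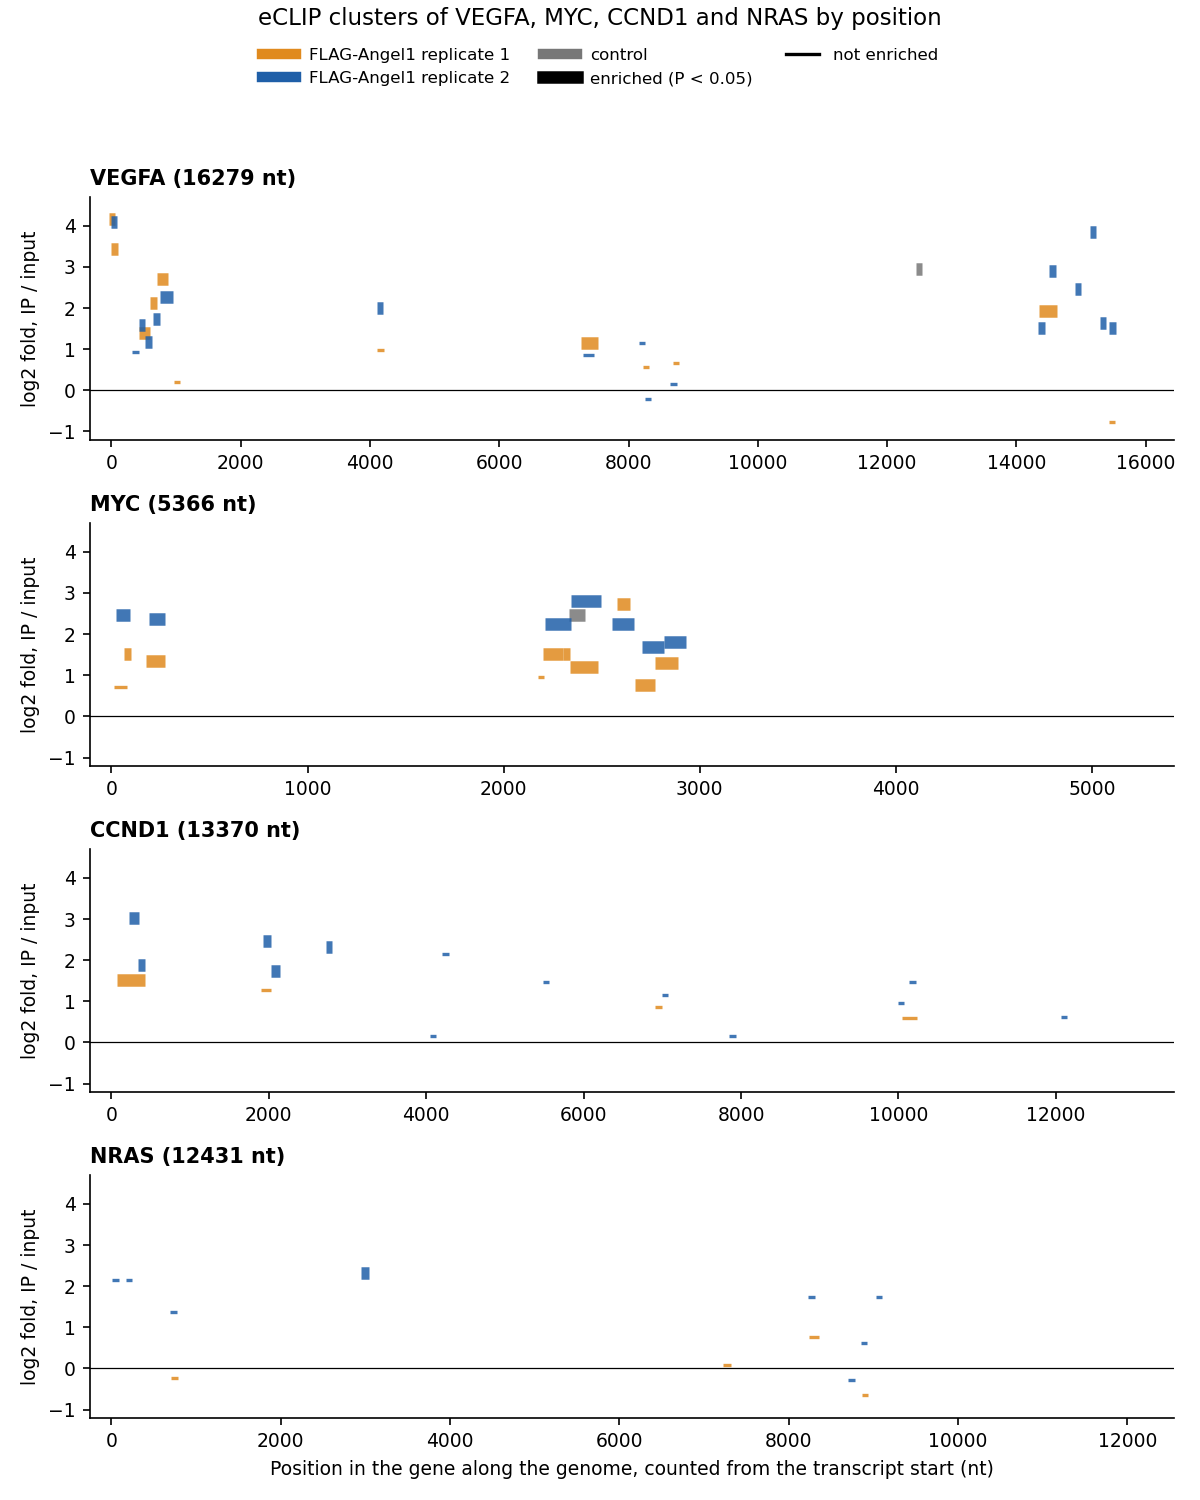
Clusters of the 4 genes by position from the transcript start (x axis, nt along the genome; a cluster narrower than 0.6% of the gene is drawn at that width) and log2 fold of IP over input (y axis), with 1 panel per gene, colors for the libraries, and thick bars for clusters past 0.05 and thin bars for the others. The highest folds stand at the start of VEGFA, at 4.16 in replicate 1 and 4.10 in replicate 2, MYC clusters form 2 groups that stop at position 2931, and nearly all NRAS bars are thin.

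In VEGFA the log2 fold was highest at its very start. In replicate 1 the first cluster took positions 2 to 9 (chr6:43737947-43737954), with a log2 fold of 4.16 (interval 1.64 to 9.48) and −log10 P of 5.62 on 84 IP reads and 1 input read. It directly abutted a cluster at 10 to 81 with a log2 fold of 3.42 (1.53 to 6.49), −log10 P of 5.84 and 101 IP against 2 input reads. In replicate 2 a single cluster covered 2 to 76 with a log2 fold of 4.10 (2.12 to 7.21), −log10 P of 7.82 and 31 IP against 2 input reads. The same stretch of 80 nt, chr6:43737947-43738026, thus carried log2 folds of 4.16 and 3.42 in replicate 1 and of 4.10 in replicate 2, each of which rested on 1 or 2 input reads. A higher fold was listed for 42 clusters of replicate 1 (0.0408%) and 907 of replicate 2 (0.935%). By the lower of the folds in both replicates the peak ranked at 2 among the 2243. The fold of a peak was that of its highest cluster in each replicate, which in replicate 1 was the cluster at 2 to 9. The start of the first cluster in both lists lay 1 nt inside the gene bound, and no cluster of either replicate on that strand was found nearer than 129792 nt upstream. Because clusters of replicate 1 abut here and the first is 8 nt wide, the same reads may count in both.

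A second stretch of VEGFA clusters followed after a gap. In replicate 1 it consisted of abutting clusters at 430 to 598 (log2 fold of 1.40, 199 IP against 16 input reads), 599 to 699 (2.13, 185 against 9) and 700 to 873 (2.70, 306 against 10). The last of these had the smallest P of all VEGFA clusters of that replicate, with −log10 P of 10.5 and an interval on the fold of 1.80 to 3.78. In replicate 2 the folds were 0.92 at 358 to 381, 1.59 at 445 to 500, 1.18 at 522 to 627, 1.73 at 647 to 744 and 2.27 at 745 to 947. The last again had the smallest P, with −log10 P of 9.22, an interval of 1.48 to 3.16 and 70 IP against 16 input reads. In both replicates the fold was therefore highest at the end of the stretch nearer the interior of the gene, although the intervals of neighboring clusters overlapped. Clusters past 0.001 merged into the second reproducible peak of VEGFA, chr6:43738544-43738892, positions 599 to 947. A further cluster of replicate 1 at 976 to 1045 stood near input level, with a log2 fold of 0.20 (interval -0.79 to 1.34). It was left out of the stretch above, and with it the fold of replicate 1 would not be highest at the interior end.

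The clusters of the second peak were wider and held more reads than those of the first. Here the inferred reads are given as RPM, scaled to a library of 1000000 reads. At 700 to 873, replicate 1 had 90.4 RPM in the IP against 13.9 in the input, whereas its clusters at 2 to 9 and 10 to 81 had 24.8 against 1.39 and 29.8 against 2.78. Replicate 2 had 27.5 against 5.69 at 745 to 947, and 12.2 against 0.71 at 2 to 76. Per nt, these clusters of replicate 1 had 0.52 RPM in the IP at 700 to 873, 3.10 at 2 to 9 (8 nt wide) and 0.414 at 10 to 81, and those of replicate 2 had 0.136 at 745 to 947 and 0.162 at 2 to 76. The higher total at the second peak came with a greater width. In replicate 1 its IP per nt at 700 to 873 lay between those at 2 to 9 and at 10 to 81. The value at 2 to 9 rests on a width of 8 nt and on reads that may also count at 10 to 81, so that nothing is read from this order. The input per nt in replicate 1 was 0.174 at 2 to 9, 0.039 at 10 to 81 and 0.080 at 700 to 873. In replicate 2 it was 0.0095 at the start against 0.028 at 745 to 947.

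**Figure D2:**
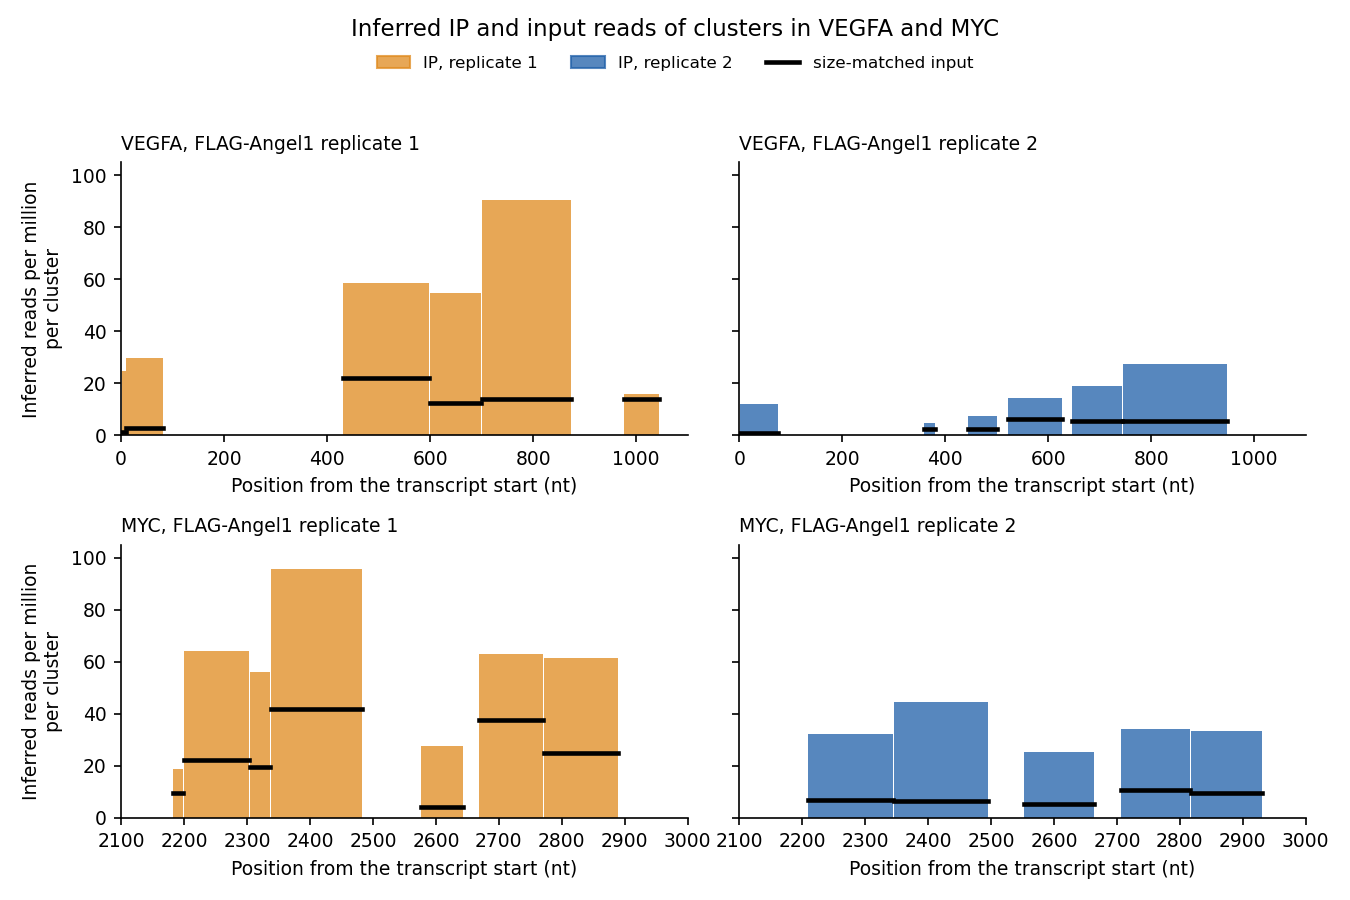
Inferred IP reads in RPM (y axis; bars, as wide as the cluster) and size-matched input (black lines) by position from the transcript start (x axis, nt), for the first clusters of VEGFA (upper row) and the second group of MYC clusters (lower row), FLAG-Angel1 replicate 1 at left and replicate 2 at right. In VEGFA the tallest bars lie between positions 700 and 947, at 90.4 and 27.5, while the input per cluster, not per nt, is lowest at the start. In MYC the tallest bars lie between 2338 and 2496, at 95.7 and 44.4.

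Beyond its first 1045 nt VEGFA held scattered clusters, and the number of clusters differed most between the replicates near its 3′ end. These groups, separated by gaps of more than 1000 nt, were drawn after the values were seen. A cluster near position 4132 had a log2 fold of 0.98 (interval -0.50 to 2.93) in replicate 1 and of 1.99 (0.51 to 3.78) in replicate 2. Between 7261 and 8753, the folds ranged from 0.57 to 1.15 over 3 clusters of replicate 1 and from -0.22 to 1.14 over 4 of replicate 2. From 14333 to 15520, near the 3′ end, replicate 1 had 2 clusters, of which 1 was enriched, and replicate 2 had 6, all enriched. The enriched cluster of replicate 1 took 14351 to 14630 with a log2 fold of 1.92 (0.64 to 3.58), and the other, at 15470 to 15480, lay below input at -0.77. In replicate 2 the fold was highest at 15161 to 15202, where 3.85 rested on 13 IP reads and 1 input read (1.11 to 9.25). The cluster at 14514 to 14599 had more reads, 27 against 4, with a log2 fold of 2.90 (1.38 to 4.88). None of these formed a reproducible peak. The control had 1 cluster in VEGFA, at 12469 to 12524, with 3 IP against 6 input reads and a log2 fold of 2.95 (0.33 to 5.18), and no FLAG-Angel1 cluster overlapped it.

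The clusters of MYC lay in 2 groups, positions 11 to 273 and 2182 to 2931, and the last 2435 nt of the gene held none in any library. At the start, replicate 1 had clusters at 11 to 78 with a log2 fold of 0.71 (interval -0.25 to 1.83), at 79 to 86 with 1.52 (0.08 to 3.45) and at 177 to 270 with 1.34 (0.58 to 2.21). Replicate 2 had clusters at 24 to 96 with a log2 fold of 2.47 (1.42 to 3.69) and at 190 to 273 with 2.38 (1.50 to 3.36). Thus the first cluster was enriched in replicate 2 and not in replicate 1, where 77 IP reads stood against 10 input reads. The pair at 177 to 273 formed a reproducible peak, chr8:128748491-128748587, with −log10 P of 3.32 and 8.45.

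In the second group the reads were most numerous. Replicate 1 had abutting clusters at 2200 to 2303 and 2304 to 2337, both with a log2 fold of 1.53, and at 2338 to 2482 with 1.20 (0.66 to 1.79) on 324 IP against 30 input reads, the largest numbers in any of the 4 genes. Replicate 2 had 2.25 (1.52 to 3.06) at 2210 to 2345 and 2.80 (2.07 to 3.60) at 2346 to 2496, the latter on 113 IP against 18 input reads. With −log10 P of 17.9, this cluster had the smallest P of all 77, and 884 clusters of its library (0.912%) had a smaller one. These clusters merged into the peak chr8:128750514-128750810.

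It was also the stretch of MYC where the control had its cluster, at 2336 to 2413, with 5 IP against 14 input reads and a log2 fold of 2.47 (0.64 to 4.02). The control cluster amounted to 23.8 RPM against 4.31 in its input. The strongest clusters there had 95.7 against 41.7 in replicate 1 and 44.4 against 6.40 in replicate 2. These clusters differed in width, at 78 nt in the control, 145 nt in replicate 1 and 151 nt in replicate 2. Per nt, IP and input had 0.306 and 0.055 RPM in the control, 0.660 and 0.288 in replicate 1, and 0.294 and 0.042 in replicate 2. The control fold lay above that of replicate 1 and inside the interval of replicate 2, and its own interval covered both. Within its own list, however, the control cluster ranked low, with a higher fold for 85.0% of control clusters. A higher fold was listed for 27.9% of clusters in replicate 1 and 14.5% in replicate 2, each against its strongest cluster there. Whether the control differs from the replicates at this stretch was not tested. The peak here was the one reproducible peak of the 6 that a control cluster overlapped.

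The remaining MYC peaks followed directly. The peak chr8:128750866-128750977, positions 2552 to 2663, had a log2 fold of 2.74 (1.14 to 5.04) in replicate 1 on 94 IP against 3 input reads, and of 2.24 (1.41 to 3.16) in replicate 2 on 64 against 15. It was the one overlapping pair of MYC clusters with the higher fold in replicate 1. The last peak, chr8:128751021-128751245, positions 2707 to 2931, had log2 folds of 1.30 (0.60 to 2.08) in replicate 1 at 2771 to 2890 and of 1.68 (1.07 to 2.33) and 1.80 (1.16 to 2.48) in replicate 2. A cluster of replicate 1 at 2668 to 2770 with a log2 fold of 0.75 (0.17 to 1.39) was enriched at 0.05 but did not pass 0.001. By the lower fold of the replicates, again from the highest cluster in each, the MYC peaks ranked at 2090, 1924, 809 and 2124 of 2243 in order of position. The second VEGFA peak ranked at 746.

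CCND1 had enriched clusters near its start in both replicates, but none past 0.001 in replicate 1. There, 1 wide cluster at 65 to 426 (chr11:69455937-69456298) had a log2 fold of 1.51 (0.41 to 2.87) and −log10 P of 2.12 on 94 IP against 7 input reads. Within its span replicate 2 had abutting clusters at 220 to 350, with a log2 fold of 3.02 (1.28 to 5.40) and −log10 P of 4.25, and at 351 to 410, with 1.88 (-0.08 to 4.38) and 1.31. The first of these was the strongest CCND1 cluster by both fold and P, on 22 IP against 3 input reads. Further inside, the fold at 1902 to 2022 was 1.27 (-0.40 to 3.62) in replicate 1 and that at 1920 to 2028 was 2.47 (0.89 to 4.48) in replicate 2. In replicate 2 the clusters at 2029 to 2138 (log2 fold of 1.73) and 2742 to 2793 (2.31) were also enriched, whereas the 8 beyond position 2793 were not, with folds from 0.14 to 2.14. The 2 clusters of replicate 1 beyond that position had log2 folds of 0.85 and 0.60. The control had no cluster in CCND1.

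NRAS clusters had few reads where these could be inferred, 1 cluster of 4 in replicate 1 and 7 of 8 in replicate 2. Reads were not sought for 2 clusters of replicate 1 and 1 of replicate 2, whose folds were not above 0. In replicate 1 its 4 clusters had log2 folds of -0.23 at 707 to 788, 0.09 at 7221 to 7319, 0.77 at 8239 to 8353 and -0.65 at 8885 to 8926, and none was enriched. In replicate 2 the cluster nearest the start, at 31 to 65, had a log2 fold of 2.14 on 4 IP reads and 1 input read, with −log10 P of 0.70 and an interval of -1.19 to 7.77. The next, at 170 to 239, had the same fold on 8 against 2 reads, with −log10 P of 1.26 and an interval of -0.18 to 5.42. Neither passed 0.05, whereas MYC clusters of the same replicate with log2 folds of 1.68 and 1.80 did, on 87 and 85 IP reads. The single enriched NRAS cluster, at 2951 to 3042 (chr1:115256474-115256565), had a log2 fold of 2.31 (0.04 to 5.56) and −log10 P of 1.50 on 9 IP against 2 input reads, and replicate 1 had no cluster there. The other 5 clusters of replicate 2 had folds from -0.27 to 1.73 on at most 7 IP reads where reads could be inferred. Replicate 1 listed no cluster before position 707, so that its list gives no fold for the start of NRAS.

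**Figure D3:**
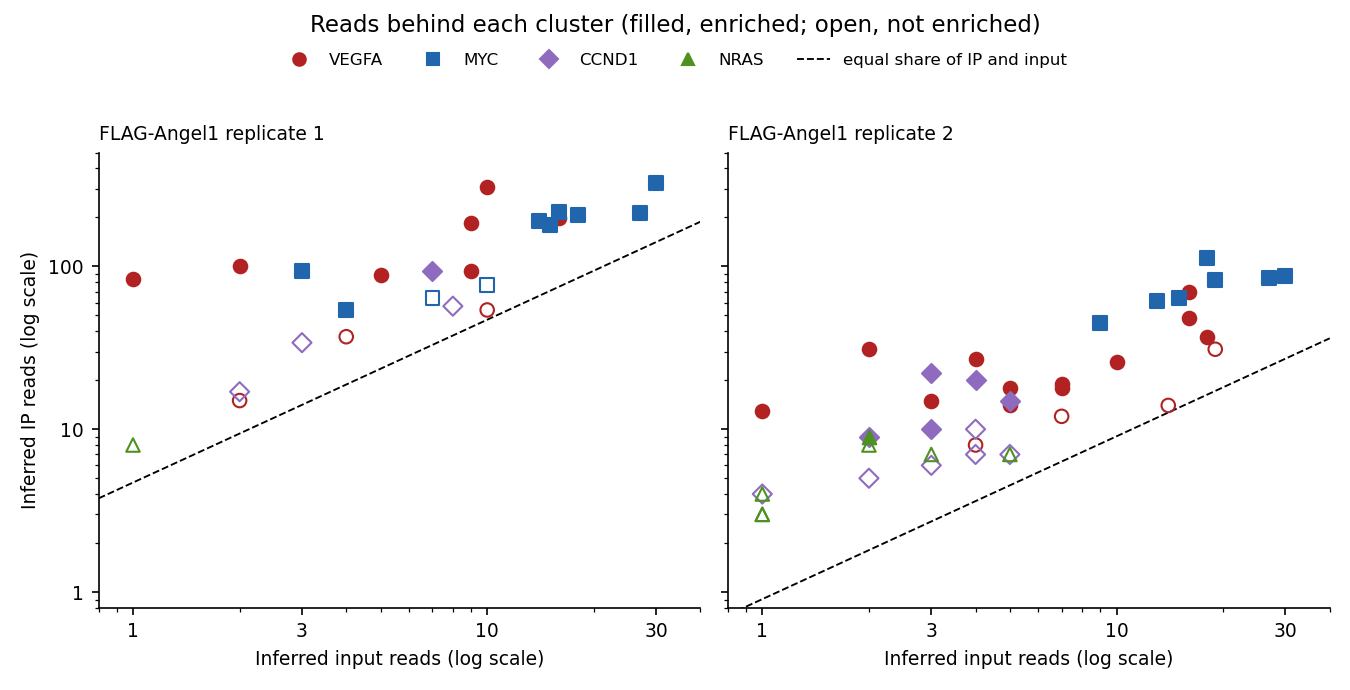
Inferred IP reads (y axis, log scale) against inferred input reads (x axis, log scale) of the clusters in the 4 genes, with FLAG-Angel1 replicate 1 at left and replicate 2 at right, filled symbols for clusters past 0.05, open symbols for the others and a dashed line where both take an equal share of their library. MYC clusters lie at the upper right, with up to 324 IP reads in replicate 1 and 113 in replicate 2, the first VEGFA clusters lie at the upper left with 1 or 2 input reads, and NRAS clusters lie at the lower left with at most 9 IP reads.

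The median log2 fold in replicate 1 was 1.28 for VEGFA (range -0.77 to 4.16), 1.32 for MYC (0.71 to 2.74), 1.06 for CCND1 (0.60 to 1.51) and -0.07 for NRAS (-0.65 to 0.77), with 0.57 over the whole list. In replicate 2 it was 1.59 for VEGFA (-0.22 to 4.10), 2.25 for MYC (1.68 to 2.80), 1.47 for CCND1 (0.14 to 3.02) and 1.73 for NRAS (-0.27 to 2.31), with 1.73 over the whole list. In both replicates the ranges overlapped between all pairs of genes, which does not decide the order of the medians, and that order was not tested. The median of the inferred IP reads per cluster in replicate 1 was 184.5 for MYC, 91.5 for VEGFA and 45.5 for CCND1, and the only NRAS cluster with inferred reads had 8. In replicate 2 it was 82 for MYC, 18.5 for VEGFA, 9 for CCND1 and 7 for NRAS. There the range of MYC (45 to 113) overlapped that of VEGFA (8 to 70) but not those of CCND1 (4 to 22) and NRAS (3 to 9). In replicate 1 the range of MYC (54 to 324) overlapped those of VEGFA (15 to 306) and CCND1 (17 to 94). Clusters of 1 library are not replicates of a gene, and these differences were not tested. Over all enriched clusters of the lists, the median was 76 IP and 4 input reads in replicate 1 and 17 and 4 in replicate 2. An input of at most 2 reads, as at the VEGFA start, was found in 29.9% and 34.2% of their enriched clusters, respectively.

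By position, 11 of the 30 clusters of replicate 1 (36.7%, Wilson 95% interval 21.9% to 54.5%) and 13 of the 45 of replicate 2 (28.9%, interval 17.7% to 43.4%) began within the first 1000 nt, which make up 8.43% of the length of the 4 genes. Neither control cluster did. VEGFA contributed 6 of its 12 and 6 of its 17 clusters, of which 5 were enriched in each replicate. The share is along the genome, so that introns count in the length. Abutting clusters were counted singly, and the intervals treat them as independent, which they are not. The share near the start over all genes was not analysed here. Since the genes were chosen with the VEGFA start in view, nothing is read from these shares.

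The length covered in both replicates varied between the genes. In MYC, 669 nt were covered in both, which was 87.8% of the covered length of replicate 1 and 85.7% of that of replicate 2. In VEGFA the shared 874 nt were 67.8% and 67.3%, in CCND1 the shared 389 nt were 51.0% and 49.9%, and in NRAS the shared 104 nt were 30.8% and 30.3%. Over the whole lists the shared length was 40.9% of that of replicate 1 and 50.8% of that of replicate 2. The fold of overlapping clusters was higher in replicate 2 in 10 of 11 pairs of MYC, 5 of 5 of CCND1 and 3 of 3 of NRAS, with median differences of 0.93, 0.87 and 1.28. For VEGFA this held for 5 of 13 pairs, with a median difference of -0.22. Over the whole lists, 49239 of 60874 pairs (80.9%) were higher in replicate 2, by a median of 1.06. Pairs within a gene share their libraries and in part their clusters, and whether VEGFA differs in this from other genes was not tested. Of the 32 pairs in the 4 genes, 22 were enriched in both replicates, 10 each in VEGFA and MYC and 2 in CCND1, beside 11844 of all 60874 pairs (19.5%), and nothing is read from this count, as the genes were chosen on these values.

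**Figure D4:**
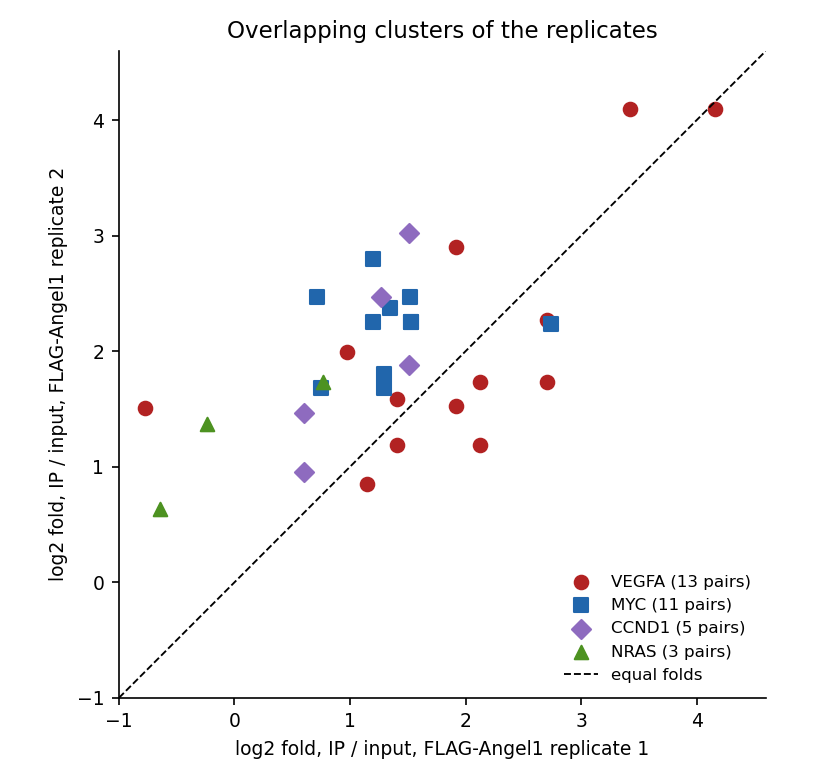
Log2 fold of IP over input in FLAG-Angel1 replicate 2 (y axis) against replicate 1 (x axis) for the 32 pairs of overlapping clusters, with 1 symbol per gene and a dashed line of equal folds. MYC, CCND1 and NRAS pairs lie above the line except 1 MYC pair, and 8 of the 13 VEGFA pairs lie below it. At the VEGFA start, 1 pair with an overlap of 8 nt lies close to the line at 4.16 and 4.10. Another there, with an overlap of 67 nt, lies above it at 3.42 and 4.10.

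The control limits what can be said of background at these sites. At an equal share of reads, the control IP would have held 5.21 reads at the first VEGFA cluster of replicate 1 and 2.56 at that of replicate 2, and over all clusters of the 6 peaks between 2.56 and 20.1. The smallest control clusters in the list had 3 IP reads and the median was 4. The same share gave 0.33 to 5.83 reads over the CCND1 clusters and 0.247 to 0.742 over those of NRAS with inferred reads. The depth of the control was thus close to the smallest listed cluster at the VEGFA start, and below it for every NRAS cluster with inferred reads, and background at these sites was not tested.

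The reproducible peaks with folds nearest to those of the VEGFA start were found by the distance between their pairs of log2 folds over both replicates. Each fold was that of the highest cluster of the peak. The nearest, chr2:54859756-54859905 on the plus strand, had log2 folds of 3.98 and 4.35 and overlapped 2 control clusters. The next, chr21:34143719-34143912 on the minus strand, had 3.86 and 4.0. It was followed by chr6:56438487-56438683 on the minus strand (3.72 and 4.08), chr12:53849130-53849154 on the plus strand (4.03 and 3.68) and chr2:73052926-73053151 on the minus strand (4.31 and 3.65). None of these last 4 overlapped a control cluster, as was the case for the VEGFA peak.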

How the data were processed

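The authors called clusters of eCLIP reads on GRCh37 in each IP separately with the eCLIP pipeline and set them against the size-matched input of that IP. For each cluster the authors deposited an enrichment (log2 of IP over input) and its −log10 P, and inputs entered only through them. The submitters' processing notes also name cutadapt, STAR, SAMtools and UMI-tools, without versions. The genes, gene lists and summaries used here were chosen with earlier results of these data known. All 4 genes were described, and the clusters given in full are those nearest the start, with the largest fold or the smallest P and those in reproducible peaks, with others chosen after their values were seen.

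From the deposited log2 values, read ratios were recovered as ratios of whole numbers (tolerance 1e-09 relative), taking the most frequent fold as 3 IP reads over 1 input read, which was possible for 99.98% of clusters of replicate 1, 99.93% of replicate 2 and 99.44% of the control. Pairs of reads were sought only for clusters with a log2 fold above 0. They were accepted when a two-sided Fisher's exact test, or a chi-square test with Yates correction where every cell was at least 5, returned the deposited −log10 P within 0.002. In every sampled cluster of the control (112), and in 927 of 933 and 1839 of 1845 in replicates 1 and 2, 1 pair matched. Estimates of the IP size of replicate 1 ranged from 3203000 to 3516000 reads. Whether the authors computed folds before or after abutting clusters were trimmed is not given in the sources used here. Reproducible peaks were merged from clusters past 0.001 in both replicates sharing at least 1 nt on one strand. No test was made between libraries, as the control has 1 library. Steps were tested on simulated data. Python 3.11.15, numpy 2.4.6, pandas 2.3.3, scipy 1.17.1, mpmath 1.4.1 and matplotlib 3.10.9 were used. A list of related growth genes was not analysed here, because it needs an annotation of GRCh37.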

Additional observations from a re-analysis of the deposited data

How the results depend on the processing

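Of 160 values under alternatives, 126 were counted as keeping their direction and size, for counts within 1.5 times and for folds within the spread of the clusters. Among the 126 are counts of 0 that stayed 0, such as those of NRAS and CCND1 in the control. Also among them is the share near the start in replicate 1, which fell from 36.7% to 23.3% with a window of 500 nt. The number of enriched clusters in the 4 genes fell from 2 to 0 in the control and from 25 to 14 in replicate 2 at the threshold of 0.001. When the log2 fold also had to reach 3, it was 0 in the control, 2 in replicate 1 (from 16) and 3 in replicate 2. Both clusters left in replicate 1 lay at the VEGFA start. Joining abutting clusters gave 10 in replicate 1, and turned the 10 MYC clusters listed there into 5. These changes follow from the settings, which admit or count fewer clusters. The median log2 fold of CCND1 in replicate 1 rose from 1.06 to 1.51 over enriched clusters, of which there was 1. That of NRAS in replicate 1 turned from -0.07 to 0.15 as a mean weighted by width, as its 4 folds lay on both sides of 0. The reproducible peaks numbered 6, 9 at the threshold of 0.05 in both replicates, 6 with reciprocal overlap of 50% and 5 without the peak over a control cluster. Without one of the replicates, and so with no overlap required, clusters past 0.001 ranged from 11 to 14. Changing the library sizes by 5% left 25, 41 and 2 clusters with 1 pair of reads. No paired analysis was possible because no test was made, and each input entered only through the folds of its own IP.

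The input of replicate 1 and the IP of the control hold the fewest reads and limit the folds at the VEGFA start and the absence of control clusters, respectively. An input of 1 read cannot be told apart from a set minimum. NRAS clusters rested on at most 9 IP reads where 1 pair matched, and 5 to 45 IP reads matched another. Reads mapping to more than 1 place and the expression of the 4 genes were not analysed here.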
